A study of Homo sapiens with 6 samples.

Results

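The tRNA gene cluster on the long arm of chromosome 14 was examined in small RNA from HEK293T cells, a human embryonic kidney line, with and without La knockdown. Its members were the rows labelled tRNA in the deposited count table that start between 20.4 and 21.2 Mb on chromosome 14 (GRCh38). The rule used no measured value, and it gave 14 windows of 53603 in the table and of 534 labelled tRNA. Each window spans 400 bp, of which 150 bp precede a start site and 250 bp follow it. Of the 14 windows, 13 cover a whole RefSeq tRNA gene with both flanks. The 14 windows lie between positions 20609158 and 20684265, a span of 75108 bp.

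Cells of both groups were collected 48 h after transfection with 150 nM siRNA. The siControl group received a control siRNA. The other, called siLa, received an siRNA directed at La, which SSB encodes, and each group had 3 libraries. RNA was treated with Antarctic phosphatase and then T4 polynucleotide kinase before library construction, so RNA with other end groups could enter the libraries. The study describes its replicates as biological, and p-values measure the spread between these libraries. In RNA pooled from a culture, fewer cells that hold an RNA and less of it per cell cannot be told apart.

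A tRNA gene is transcribed by RNA polymerase III from control elements inside the gene, the A box and the B box, and transcription stops at a run of T. The new transcript therefore ends in a run of U, to which La binds. RNase P removes the 5′ leader, RNase Z cuts off the 3′ trailer, and transcripts with an intron are spliced by the tRNA splicing endonuclease and a ligase. Tyrosine tRNA genes with the anticodon GTA carry such an intron just after the anticodon. The count of a window does not tell apart new transcripts, mature tRNAs and fragments of either.

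RefSeq genes named 13 of the 14 windows. They comprised 4 tyrosine windows (TRY-GTA4-1, TRY-GTA5-3, TRY-GTA5-4 and TRY-GTA5-5), 4 proline windows (TRP-AGG2-5, TRP-AGG2-6, TRP-TGG1-1 and TRP-TGG3-2), 3 threonine windows (TRT-TGT3-1, TRT-TGT4-1 and TRT-TGT5-1) and 2 leucine windows (TRL-AAG2-3 and TRL-TAG2-1). The window tRNA_51447 (positions 20630260 to 20630659) holds no RefSeq gene and is called by its label. In these symbols the letters after the hyphen are the anticodon, the next number stands for a mature sequence, and the last number counts the gene copies with that sequence. The tyrosine genes TRY-GTA5-3, TRY-GTA4-1 and TRY-GTA5-4 are 94 bp long and TRY-GTA5-5 is 89 bp long, whereas the other named genes are 72, 73 or 82 bp long. The windows of TRP-AGG2-6 and TRT-TGT3-1 overlap by a few bases and no other pair of members does. TRY-GTA7-1, which RefSeq places between TRY-GTA4-1 and TRY-GTA5-4, was not analysed here.

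RefSeq promoter sequences (GRCh38.p14) cover the whole of 1 member gene and the start of another. That of TRP-TGG3-2 is shown for its B box core and its run of T. That of TRY-GTA5-3 stops early in the gene and shows no B box, intron or run of T after the gene. The A box is not marked in either. TRP-TGG3-2 lies inside the promoter entry of ANG, which encodes angiogenin, a ribonuclease known to cut tRNAs. The first sequence runs over chr14:20683976-20684114 on the plus strand, and the second over chr14:20653172-20653252 on the minus strand. Capitals mark the tRNA gene, complete for TRP-TGG3-2 and limited to its first 21 bases for TRY-GTA5-3.
TRP-TGG3-2: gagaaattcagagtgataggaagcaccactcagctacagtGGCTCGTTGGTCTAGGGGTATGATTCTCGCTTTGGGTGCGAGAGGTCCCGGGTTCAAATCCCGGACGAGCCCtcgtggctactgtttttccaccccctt
TRY-GTA5-3: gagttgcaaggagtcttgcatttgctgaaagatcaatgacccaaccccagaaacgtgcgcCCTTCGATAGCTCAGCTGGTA

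In the first sequence the core of the B box (GGTTCNA, where N is any base) starts at base 51 of the gene. Searched on both strands, these letters occur in 2876 of 34943 RefSeq promoter sequences of 1 length, or 8.23%. The first run of at least 4 T after the gene is 5 T long and begins after 12 bases of trailer. The match and the run are descriptions of the letters, not measured sites.

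Total counts over all windows ran from 3066299 to 4105806 per library, and the cluster's 14 windows held from 4473 to 18033 of them. At the SSB promoter the siControl libraries held 4, 3 and 3 counts and the siLa libraries 1, 0 and 0, which is too few to test and measures no mRNA. Windows of ribosomal RNA held 39.4% ± 4.89 of all counts in the siControl arm and 47.3% ± 6.97 in the siLa arm (SD, n = 3), with overlapping ranges. The labelled cell type was not checked, because the windows count small RNA and not the mRNA of marker genes.

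Small RNA fell at 7 of the 14 windows of the cluster in the siLa libraries, by 49.4% to 70.4%, and rose at 0. The call is an adjusted p under 0.05 by the Benjamini-Hochberg method, from an edgeR quasi-likelihood test of all 1064 windows tested, with 3 libraries per arm. Over all windows tested, 4.79% were called lower and 0.658% higher (51 and 7 windows, against 36 and 58 under upper quartile factors), and over the 432 tested tRNA windows outside the cluster 5.56% were. At an unadjusted p under 0.05 the cluster had 11 lower and 0 higher windows, beside 14.2% of all windows tested called lower. Of the 432 tested tRNA windows outside the cluster, 106 were lower and 3 higher at that unadjusted level. The 7 called windows were TRY-GTA4-1, TRY-GTA5-4, TRT-TGT5-1, TRT-TGT3-1, TRP-TGG1-1, TRL-TAG2-1 and tRNA_51447. In 10 of the 14 windows the CPM values of the arms did not overlap, as in 17.9% of all windows tested and 33.3% of the tested tRNA windows outside the cluster. The filter on low counts removed none of the 14, whose mean counts ran from 107.5 to 1584 per library. All 14 fitted log2 fold changes were below 0 (13 under upper quartile factors, where TRL-AAG2-3 was above), with a median of -1.04, against a median of -0.05 over all windows tested and -0.40 over tRNA windows outside the cluster. Of the windows tested, 53.2% had a fitted value below 0, and of the tRNA windows outside the cluster 82.2% did. Without siLa replicate 1, edgeR called 0 of 1121 windows in either direction, so none of the 7 calls held. In that fit 7 members had an unadjusted edgeR p under 0.05 and the cluster median was -0.99. Without siLa replicate 3, 10 members were called lower, among 98 of 1139 windows. Without siControl replicate 1 or 2, 3 members were (among 30 of 1114 and 29 of 1140 windows), and without siControl replicate 3 or siLa replicate 2, 4 were (among 53 of 1100 and 32 of 1098).

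**Figure D1:**
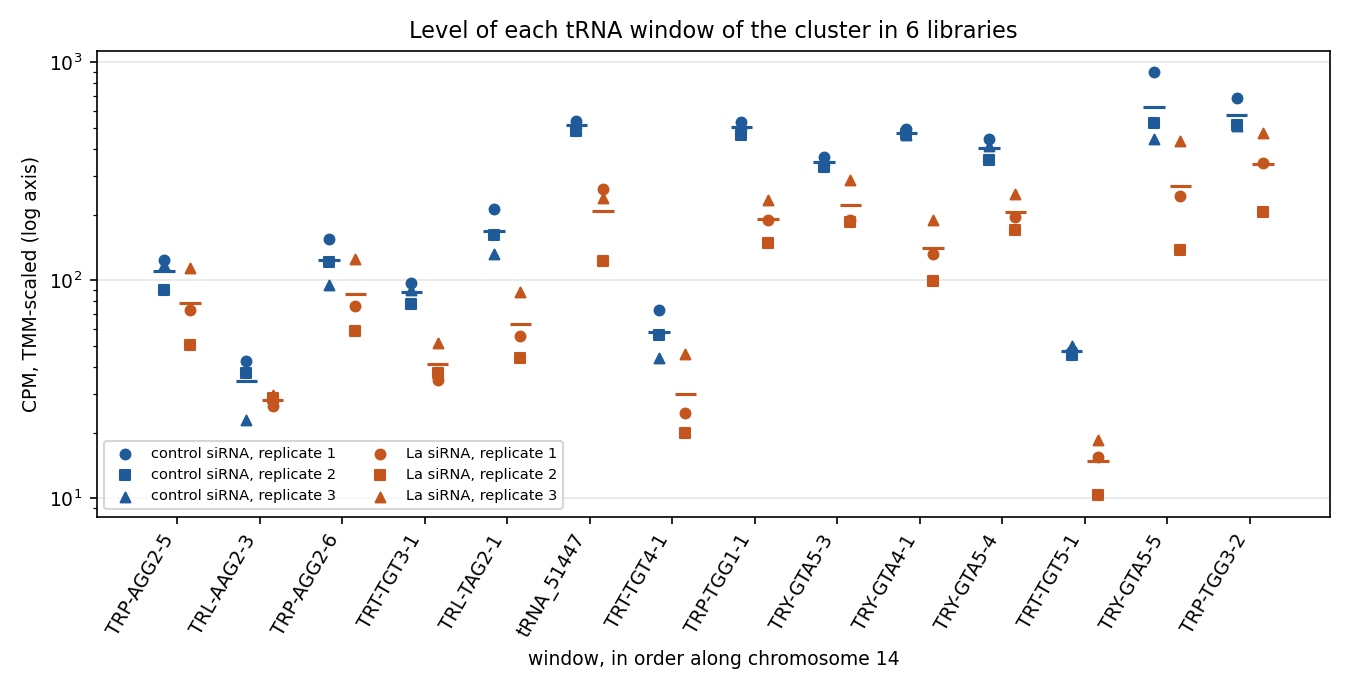
Level in CPM (scaled by TMM factors, log axis) of each of the 14 windows in chromosome order, with 1 point per library and a bar at the mean of each group of 3 libraries. The La siRNA points lie below all control points in 10 of the 14 windows, and replicate 3 is the highest of the La siRNA libraries in 13 of 14.

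The cluster as a whole made up 0.439%, 0.387% and 0.418% of all counts in siControl replicates 1 to 3 and 0.169%, 0.131% and 0.259% in siLa replicates 1 to 3. The arms did not overlap, and the mean went from 0.415% ± 0.0263 to 0.187% ± 0.0656 (SD, n = 3). Ribosomal RNA windows held a larger mean share in that arm, so the share was also taken without them. It was then 0.686% ± 0.0537 in the siControl arm and 0.347% ± 0.0783 in the siLa arm (SD, n = 3), again with no overlap. Among tRNA counts alone, the cluster held 2.65% ± 0.153 in the siControl arm and 1.59% ± 0.338 in the siLa arm (SD, n = 3), so its share of tRNA counts was lower in each siLa library. The tRNA windows outside the cluster together went from 15.2% ± 0.340 to 11.3% ± 1.51 of all counts (SD, n = 3). These shares are sums over chosen members and were given no test.

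The tyrosine windows were the main source of reads, with 45.4% ± 1.21 of the cluster's counts in the siControl arm and 43.5% ± 2.39 in the siLa arm (SD, n = 3), ranges that overlapped. All 4 had fitted values below 0, with a median log2 fold change of -1.09, and 2 of them were called lower. TRY-GTA4-1 (window 20657308 to 20657707, gene 20657464 to 20657557) had 492, 471 and 461 CPM in the siControl libraries and 132, 99.3 and 189 CPM in the siLa libraries. The control values lay close together and the siLa libraries were all far below them. The fall was 3.38-fold (log2 fold change -1.76, SE 0.28, edgeR adjusted p = 0.0119), the lowest log2 fold change of the 14. It was called in 5 of the 6 fits that left out 1 library, with the exception of the fit without siLa replicate 1 (edgeR adjusted p = 0.121).

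The other tyrosine genes of the cluster are copies of the same mature sequence, of which RefSeq lists 5 copies. TRY-GTA5-4 (window 20663036 to 20663435) had 442, 357 and 415 CPM in the siControl libraries and 196, 169 and 249 CPM in the siLa libraries. The arms were apart, and the log2 fold change was -0.98 (SE 0.25, edgeR adjusted p = 0.0448), a call that held only in the fit without siLa replicate 3 among the 6 that left out 1 library. It was also lost under RLE factors (log2 fold change -0.92, edgeR adjusted p = 0.0512) and under upper quartile factors (-0.66, edgeR adjusted p = 0.0836). TRY-GTA5-3 (window 20652943 to 20653342), whose first bases are printed above, had 365, 330 and 355 CPM in the siControl libraries and 189, 184 and 288 CPM in the siLa libraries. Its arms were apart as well, but its value did not pass (log2 fold change -0.67, SE 0.26, edgeR adjusted p = 0.157).

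TRY-GTA5-5 (window 20683123 to 20683522) carries the shorter gene and had the highest mean control level of the cluster. Its values were 902, 527 and 446 CPM in the siControl libraries and 243, 138 and 434 CPM in the siLa libraries. Control replicate 1 stood well above the other controls, and siLa replicate 3 almost reached the lowest control. The change did not pass (log2 fold change -1.20, SE 0.42, edgeR adjusted p = 0.129), and its standard error was the largest among the 14. With the replicate number as a block it passed (edgeR adjusted p = 0.00220), as it did without a filter (0.000340) and without siLa replicate 3 (0.0304), all with edgeR. The copies of this sequence outside the cluster also differed among themselves. TRY-GTA5-1 was lower (log2 fold change -1.33, edgeR adjusted p = 0.0328), and TRY-GTA5-2, on 29.1 CPM in the siControl arm, had one of 0.74 (edgeR adjusted p = 0.178).

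The threonine windows had the lowest levels beside TRL-AAG2-3, and 2 of the 3 were called lower. TRT-TGT5-1 (window 20681540 to 20681939) had 47.2, 45.5 and 49.8 CPM in the siControl libraries and 15.4, 10.3 and 18.6 CPM in the siLa libraries. Each siLa library was far below the lowest siControl library, and the fall was 3.22-fold (log2 fold change -1.69, SE 0.30, edgeR adjusted p = 0.0148). TRT-TGT3-1 (window 20613613 to 20614012) went from 88.3 ± 10.1 to 41.4 ± 9.02 CPM (SD, n = 3), and this fall passed the test (log2 fold change -1.09, edgeR adjusted p = 0.0375) but not under upper quartile factors (-0.77, edgeR adjusted p = 0.0672). TRT-TGT4-1 (window 20630983 to 20631382) was not called (log2 fold change -0.94, edgeR adjusted p = 0.157), and its siLa replicate 3, at 45.7 CPM, lay above siControl replicate 3, at 44.1 CPM. TRT-TGT5-1 was called in 5 of 6 fits with 1 library left out and TRT-TGT3-1 in 1 of 6. Their highest edgeR adjusted p-values over these fits were 0.121 and 0.204, both without siLa replicate 1.

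Of the 4 proline windows, 1 was called lower. TRP-TGG1-1 (window 20632853 to 20633252) had 531, 461 and 514 CPM in the siControl libraries and 190, 148 and 233 CPM in the siLa libraries. The arms were well apart and the fall was 2.64-fold (log2 fold change -1.40, SE 0.25, edgeR adjusted p = 0.0148), a call kept in 5 of 6 fits with 1 library left out. TRP-TGG3-2 (window 20683866 to 20684265, gene 20684016 to 20684087), the gene printed in full above, had 686, 516 and 507 CPM in the siControl libraries and 345, 207 and 475 CPM in the siLa libraries. The arms did not overlap, although siLa replicate 3 came near the controls, and the log2 fold change was -0.74 (SE 0.31, edgeR adjusted p = 0.186).

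The AGG windows had overlapping arms. TRP-AGG2-5 (window 20609158 to 20609557) went from 111 ± 17.9 to 79.0 ± 31.9 CPM and TRP-AGG2-6 (window 20613223 to 20613622) from 123 ± 29.7 to 86.5 ± 34.3 CPM (SD, n = 3). Their log2 fold changes were -0.49 (SE 0.31) and -0.51 (SE 0.32), with edgeR adjusted p-values of 0.315 and 0.307. Neither was called in any fit that left out 1 library. Together the AGG windows made up 5.73% ± 0.160 of the cluster's counts in the siControl arm and 8.51% ± 0.648 in the siLa arm (SD, n = 3).

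Of the 2 leucine windows, 1 was called lower, and the difference between them was not tested. TRL-TAG2-1 (window 20625220 to 20625619) had 212, 161 and 132 CPM in the siControl libraries and 55.6, 43.9 and 88.5 CPM in the siLa libraries. The arms were apart (log2 fold change -1.42, SE 0.32, edgeR adjusted p = 0.0304), and the call was kept in 2 of 6 fits with 1 library left out. TRL-AAG2-3 (window 20609982 to 20610381) had 42.8, 37.5 and 22.8 CPM in the siControl libraries and 26.5, 28.9 and 29.6 CPM in the siLa libraries. The arms overlapped, and its change was the one of the 14 nearest to 0 (log2 fold change -0.28, SE 0.30, edgeR adjusted p = 0.540). It turned to 0.04 under upper quartile factors.

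The unnamed window tRNA_51447 had 536, 483 and 527 CPM in the siControl libraries and 262, 123 and 237 CPM in the siLa libraries. Here siLa replicate 2 was far below the other siLa libraries, replicate 1 was the highest of them, and all 3 lay below the controls. The log2 fold change was -1.31 (SE 0.30, edgeR adjusted p = 0.0330), a call kept in 2 of 6 fits with 1 library left out and lost under upper quartile factors (-0.99, edgeR adjusted p = 0.0541).

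**Figure D2:**
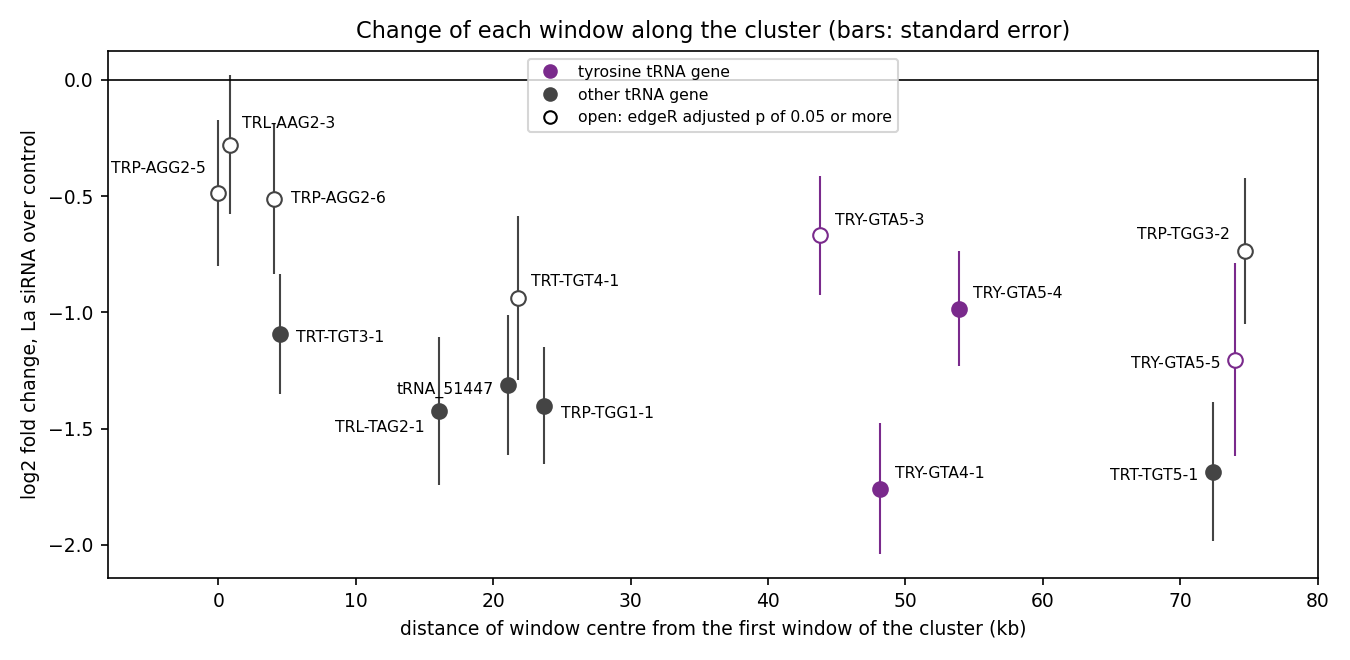
Log2 fold change (La siRNA over control, with its standard error as a bar) of each window against the distance of its centre from the first window in kb. Filled points had an edgeR adjusted p under 0.05, and they lie from 4.455 kb to 72.382 kb, with uncalled windows among them.

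Along the chromosome, the first 3 windows and the last 2 were uncalled, and called and uncalled windows were mixed between them. TRP-AGG2-6 and TRT-TGT3-1 are adjacent, with centres 4.065 and 4.455 kb from the first window, and had log2 fold changes of -0.51 and -1.09. At the other end, TRT-TGT5-1, TRY-GTA5-5 and TRP-TGG3-2 lie within a few kb of each other, at 72.382, 73.965 and 74.708 kb, and had -1.69, -1.20 and -0.74. Windows of other classes in the searched range were almost unread, since none of 31 had more than 7 counts in a library. The window at a start site of RNASE4, next to TRP-TGG3-2 and beside the ANG start, had 0 counts in each of the 6 libraries, where a count of 0 allows up to 3 counts in a library (counting error only).

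In the order of mean control levels, per window of equal length, TRY-GTA5-5 (625 ± 243 CPM), TRP-TGG3-2 (570 ± 101 CPM), tRNA_51447 (515 ± 28.6 CPM), TRP-TGG1-1 (502 ± 36.8 CPM) and TRY-GTA4-1 (475 ± 15.6 CPM) came first (SD, n = 3). The first 4 of these each overlapped the next in their control values, whereas the lowest control of TRY-GTA4-1 lay above the highest of TRY-GTA5-4. TRY-GTA5-4 and TRY-GTA5-3 followed, and then came a gap to TRL-TAG2-1 at 168 ± 40.4 CPM. The lowest was TRL-AAG2-3 at 34.4 ± 10.4 CPM (SD, n = 3). Windows of high level were found both among the called and among the uncalled ones.

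The siLa libraries differed among themselves. Relative to the control mean of each window, the median over the 14 windows was -1.14 on the log2 scale in siLa replicate 1, -1.50 in replicate 2 and -0.61 in replicate 3. The siControl libraries had medians of 0.15, -0.09 and -0.01. All 14 windows were below their control mean in siLa replicates 1 and 2, and 12 were in replicate 3.

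**Figure D3:**
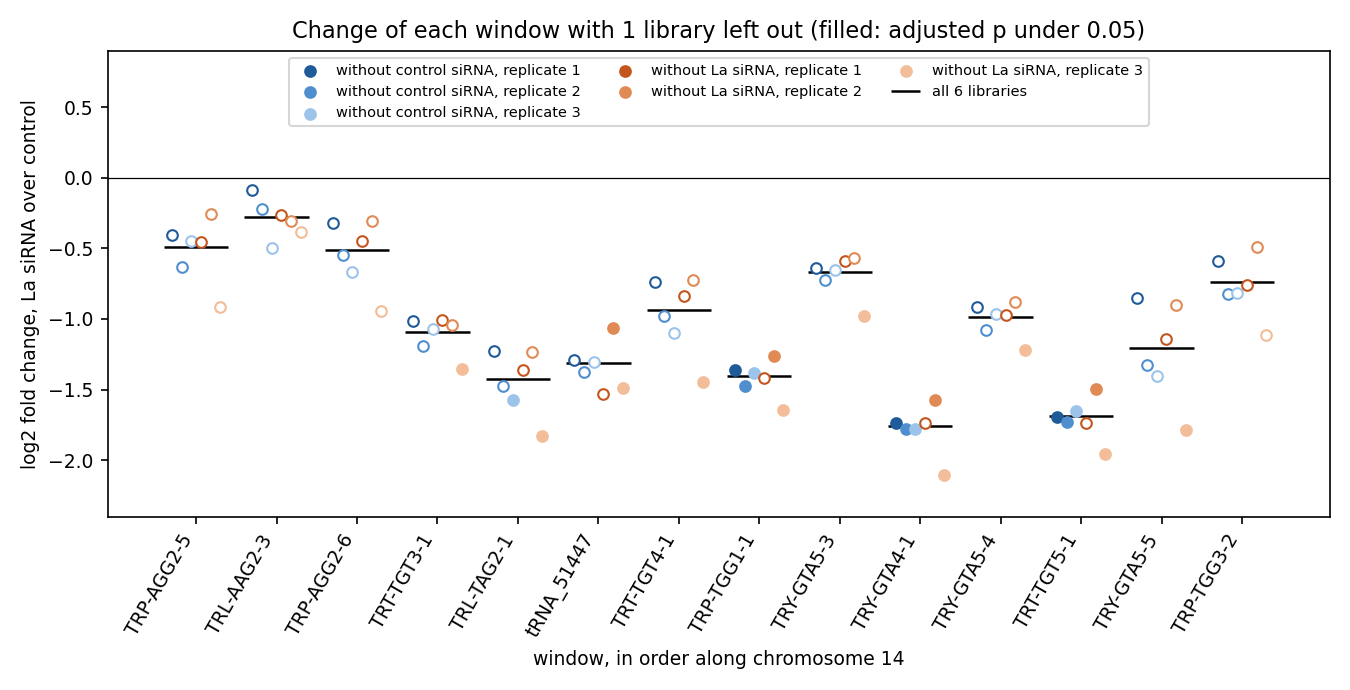
Log2 fold change (La siRNA over control) of each window in the 6 fits that each left out 1 library, filled where the edgeR adjusted p was under 0.05, with a bar at the value from all libraries. All points lie below 0, none is filled without La siRNA replicate 1, and the lowest point of most windows is the fit without La siRNA replicate 3.

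Gene copy number in RefSeq was compared with the calls after the values had been seen. Of the 6 members whose symbol stands for a sequence with 1 gene copy, 5 were called lower, and the median log2 fold change was -1.41. Of the 7 members whose sequence has further copies (8 for TRP-AGG2, 5 for TRY-GTA5 and TRP-TGG3, 4 for TRL-AAG2), 1 was called lower, and the median was -0.67. Outside the cluster, 10 of 152 tested tRNA windows with 1 copy were called lower with a median of -0.55, and 7 of 207 with more copies with a median of -0.37 (edgeR). DESeq2 called 25 and 12 of these lower. Windows without a symbol that gives a copy number were left out. The groups therefore hold fewer than the 432 tested tRNA windows outside the cluster, of which edgeR called 24 lower. Copies of a sequence can share reads, and how reads with several positions were counted is not given in the sources used here, so values of single copies are uncertain. The windows of the TRP-AGG2 copies had much alike log2 fold changes, from -0.53 (TRP-AGG2-1) to -0.29 (TRP-AGG2-2) over the whole genome. Those of TRP-TGG3 ranged from -1.50 (TRP-TGG3-1) to -0.38 (TRP-TGG3-4).

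Windows of the same anticodons elsewhere in the genome gave the following picture. Outside the cluster, 2 of 7 tested tyrosine windows were called lower, with a median log2 fold change of -0.84, and 3 of 5 TRP-TGG windows were, with a median of -1.21. At an unadjusted edgeR p under 0.05, 4 of these tyrosine windows were lower and 1, TRY-GTA5-2, was higher. None of the 7 TRP-AGG windows and none of the 7 TRL-AAG windows was called (edgeR), with 0 at an unadjusted p under 0.05 in either family, and their medians were -0.31 and -0.18. Both TRL-TAG windows had fitted values of -1.55 and -1.27 without a call (edgeR adjusted p = 0.0963 and 0.0959 for TRL-TAG1-1 and TRL-TAG3-1). The 3 TRT-TGT windows had a median of -0.52 and 0 calls, with 1 at an unadjusted p under 0.05. With DESeq2, 0 windows of TRP-AGG, TRL-AAG and TRT-TGT outside the cluster were called and both TRL-TAG windows were called lower. The difference between windows inside and outside the cluster was not tested for any family.

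**Figure D4:**
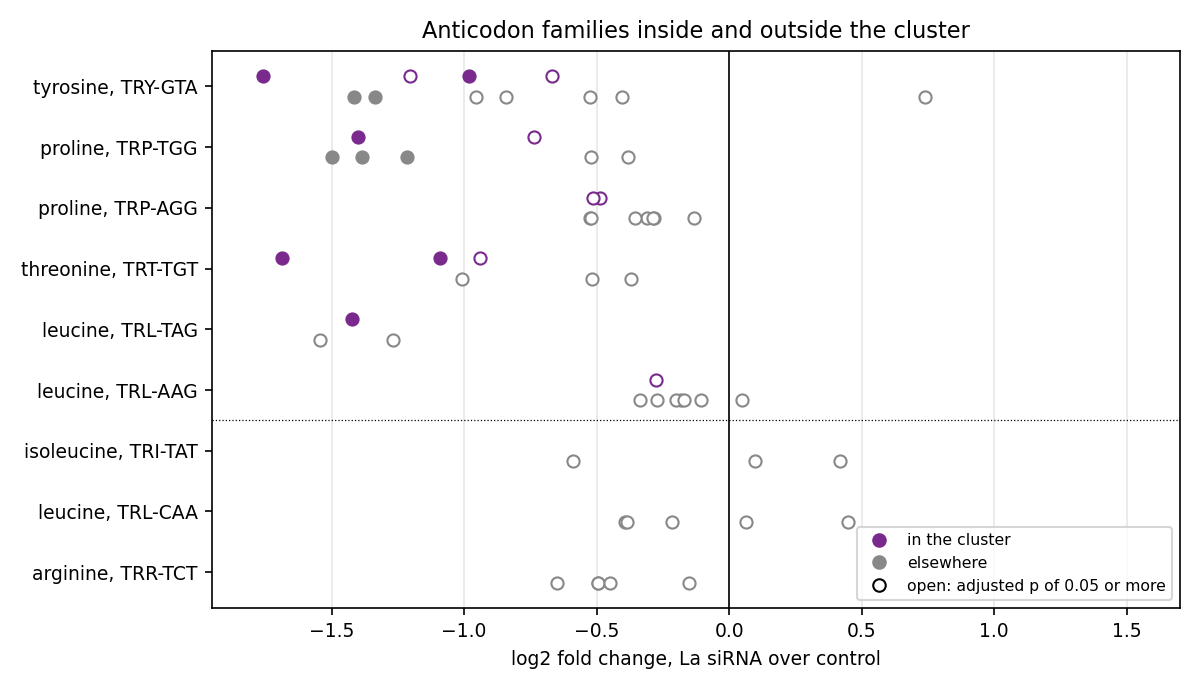
Log2 fold change (La siRNA over control) of every tested tRNA window of 9 anticodon families, purple in the cluster and grey elsewhere, filled where the edgeR adjusted p was under 0.05. TRY-GTA and TRP-TGG have filled points both in and outside the cluster, while TRP-AGG, TRL-AAG and the families under the dotted line, in which introns occur, have none.

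Other families in which intron-containing genes occur were read beside the tyrosine genes. None of the 3 tested TRI-TAT, 5 TRL-CAA and 5 TRR-TCT windows was called (edgeR), with 1 TRR-TCT window lower at an unadjusted p under 0.05. DESeq2 also called 0 in each of these families. Their medians were 0.10, -0.22 and -0.49 on the log2 scale. The RNA subunit of RNase P, RPPH1, has its window (20343158 to 20343557) upstream of the cluster on the same chromosome. It had 478, 432 and 580 counts in the siControl libraries and 475, 680 and 553 in the siLa libraries, with a fitted log2 fold change of 0.44 that did not pass (edgeR adjusted p = 0.247). The other 9 tested tRNA windows of chromosome 14 had a median of -0.10, with 0 called by edgeR or DESeq2 and 1 lower at an unadjusted edgeR p under 0.05.

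In the authors' deposited table, 8 of the 14 windows were lower with an adjusted p under 0.05, where 0.149% of all 53603 windows were. Those 53603 include unread windows: 21830 had at least 1 count over the 6 libraries, and 1064 passed the filter used here. The authors' deposited table called the 7 windows called here and in addition TRY-GTA5-5, there at -1.40 on the log2 scale (adjusted p 0.00509). For TRY-GTA4-1 the authors' deposited table gives -1.99 on the log2 scale (adjusted p 9.23e-07), and the median over the 14 windows in it is -1.29. TRY-GTA5-4 is just inside the threshold in the authors' deposited table (adjusted p 0.0495).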

How the data were processed

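The count table that the authors deposited gives raw read counts per 400 bp window in 6 libraries, per the file headers, and every value column was matched to a library. Their deposited comparison gives, per the file headers, log2 fold change, mean log2 CPM, F statistic (a score), p-value and adjusted p. Trim Galore, Bowtie2, bedtools, edgeR and the builds GRCh38 and hg38 are named in the submitters' processing notes. Versions, use of strand and reads with several positions are not given in the sources used here. Positions are printed counted from 1.

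Windows were named by the RefSeq (GRCh38.p14) tRNA gene that lies inside them, which named 383 of 534 tRNA windows. Counts of all windows were filtered with filterByExpr (1064 left), scaled by TMM factors and fitted with edgeR 4.0.16 in R 4.3.3 with the arm as single term. CPM values use the TMM factors, and standard errors come from the fold change and F. Simulated data were used to test the fit. DESeq2 1.42.0 was an alternative, with those listed at the end. Replicates differed by more than sampling noise (chi-square per degree of freedom at least 62.3). Matplotlib 3.10.9 drew the figures.

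Members, lists and tests were chosen with earlier results of these data known. Named with values were all tyrosine windows, all called windows and the window of the highest count per anticodon, and TRP-AGG2-5, TRT-TGT4-1 and the copies outside the cluster were added after their values were seen.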

Additional observations from a re-analysis of the deposited data

How the results depend on the processing

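The cluster's count of lower windows, 7 with all libraries, was 4 under upper quartile factors (36 lower and 58 higher over all windows) and ranged from 0 (siLa replicate 1 left out, 0 over all windows in either direction) to 10 (siLa replicate 3 left out, 98 lower and 21 higher over all windows) over fits without 1 library. It was 6, 7 or 8 under RLE factors, library size alone, TMM factors without ribosomal RNA windows, DESeq2, no filter, at least 20 counts on average and the replicate block. Over all windows these fits called, in that order, 49, 69, 47, 76, 104, 46 and 88 lower and 7, 6, 7, 23, 4, 4 and 20 higher. They tested 916 windows without ribosomal RNA windows, 21830 without a filter, 900 with at least 20 counts on average and 1064 otherwise. No member was called higher under any of these alternatives. The cluster median ranged from -1.40 to -0.88 over fits without 1 library, and the tyrosine median from -1.50 to -0.88. Under upper quartile factors the all-window median shifted by 0.32, the tyrosine median was -0.77 and TRL-AAG2-3 reversed to 0.043. Relative to the median of all windows, the cluster median was -0.98 under both TMM and upper quartile factors.

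The difference in share of -0.23 percentage points became -0.34 without ribosomal RNA windows and -1.07 of tRNA counts, each on a smaller denominator. As a share of all counts, it ranged from -0.26 to -0.20 without 1 library. Relative to the control mean, the fall in share was largest for all counts, smaller without ribosomal RNA windows and smallest among tRNA counts. The tRNA windows outside the cluster also held a smaller share of all counts in the siLa arm. Of 196 values of single windows under the alternatives, 165 held in direction and call, 25 lost their call, 5 gained one and 1 reversed. The cause of lost calls was not tested.

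With the replicate number as a block, 8 members were lower, including all 7, and the cluster median was -1.05. Over all 1064 windows tested, that fit called 88 lower and 20 higher, against 51 and 7 without the block. The labels do not say that the replicate numbers pair the arms. Same-numbered libraries had correlations of deviations of 0.14, 0.23 and -0.46, and not every library correlated best with its own number. With 3 libraries per arm, deviations from the arm mean constrain one another, so these values cannot decide whether the numbers pair the arms. The members' mean counts ran from 107.5 to 1584 per library, and the effect of depth on the calls was not tested.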
